A study of Mus musculus with 6 samples.

Results

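The REV-ERB receptors and the corepressor complex they recruit were followed as 8 genes in cultured mouse microglia. These were Nr1d1 and Nr1d2, which encode REV-ERBα and REV-ERBβ, Thra, whose exons overlap those of Nr1d1, and the corepressor genes Ncor1, Hdac3, Tbl1x, Tbl1xr1 and Gps2. They were found by symbol and were 8 of the 55487 genes counted. The study deleted Nr1d1 in microglia and compared the RNA of cultures with and without Cre. Cortical microglia were grown from mixed glial cultures of pups at postnatal days 1 to 3, in which GM-CSF at 5 ng/ml was used. The 3 Cre+ libraries came from CAG::CreERT2; Nr1d1 fl/fl pups, and the 3 Cre- libraries came from Nr1d1 fl/fl littermates without Cre. Both groups received 4-hydroxytamoxifen (4-OHT) at 1.5 μM, so the drug and the floxed allele were shared. Cre was the difference named between the groups. Other differences, such as the sex of the pups, were not examined. By the labels the drug was present for 2 days, whereas the methods state a shorter exposure for cultures of this line. The CAG promoter is active in nearly all cell types, so recombination was not restricted to microglia in the culture. The labels number the samples of each group but do not say that each came from a separate pup, so p-values here measure the spread between these libraries.

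REV-ERBα and REV-ERBβ are nuclear receptors of the circadian clock that bind heme and lack the helix with which other nuclear receptors recruit coactivators. Bound to DNA, they recruit NCoR1, a large scaffold that carries and activates the histone deacetylase HDAC3, and TBL1X, TBLR1 (encoded by Tbl1xr1) and GPS2 are stable subunits of the same complex. In macrophages and microglia this pathway is known for its repression of clock, lipid and inflammatory genes. Thyroid hormone receptor α, encoded by Thra, binds the same corepressors when it has no hormone.

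Nr1d1 lies on the minus strand of chromosome 11 (GRCm38, chr11:98767932-98775333), and its counted length is 3077 bases in 8 exons. Recombination between the loxP sites removes exons 3 to 5. In the GENCODE annotation (release M21) these exons span chr11:98770188-98771525 and hold 878 bases, all of them coding. They make up 28.5% of the counted length, so 71.5% of it lies in exons that stay in the gene. The coding length lost leaves a remainder of 2 bases after division by 3, which shifts the reading frame. Exon 3 (chr11:98771437-98771525, minus strand, coding) holds the 4 cysteine codons of the first zinc finger of the DNA-binding domain, at codons 133 to 153. That exon is shown because it holds a part of the DNA-binding domain that Cre removes. Beside it is the matching coding stretch of Thra (chr11:98756935-98757023, plus strand, 1 exon), and the 4 cysteine codons of each are in capitals.
Nr1d1: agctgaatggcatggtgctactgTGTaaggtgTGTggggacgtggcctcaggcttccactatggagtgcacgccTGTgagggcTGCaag
Thra: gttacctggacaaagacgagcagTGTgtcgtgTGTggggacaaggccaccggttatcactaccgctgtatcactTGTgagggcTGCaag
Over these 89 bases, Thra was identical to Nr1d1 at 52 positions (58.4%), with a longest shared run of 15 bases. Exon 8 of Nr1d1 shares 263 bases with exons of Thra on the opposite strand (chr11:98768157-98768419), which is 8.55% of the length of Nr1d1 and 5.70% of that of Thra. The labels name a SMARTer library kit without saying whether it keeps strand, and no strand setting of the counting is stated, so reads in these bases cannot be told apart between the genes.

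**Figure D1:**
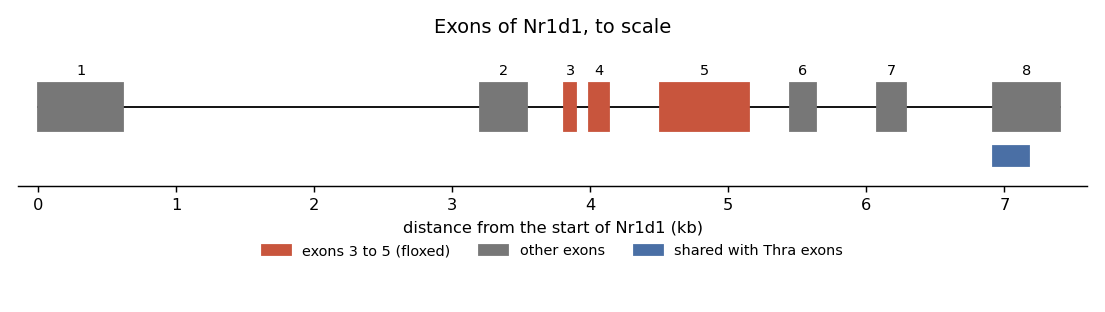
Exons of Nr1d1 drawn to scale against the distance from the start of the gene in kb, in the direction of transcription. Exons 3 to 5, floxed in both groups, hold 878 bases, and the bar under exon 8 marks the 263 bases shared with exons of Thra.

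Reads were counted per gene, from 87545868 to 110909129 per library, and 11429 genes above 1 CPM (counts scaled to a library total of 1000000) in at least 4 libraries were tested. All 8 genes passed this filter. Nr1d1 and Thra passed it in 4 libraries, the fewest allowed, 3 Cre- libraries and 1 Cre+ library each. Levels are given as CPM after TMM normalization, and differences as log2 fold changes of Cre+ over Cre-, from edgeR's quasi-likelihood test with Benjamini-Hochberg adjustment over the tested genes. An adjusted p-value no higher than 0.05 was reached by 579 of them (5.07%). The microglia markers Trem2 and Csf1r were abundant in both groups, at means of 1614 and 466 CPM in Cre- and 1616 and 462 CPM in Cre+ libraries. Of the 10 microglia markers tested, 1 was called higher in Cre+ libraries and 0 lower. It was Itgam, at means of 104 CPM in Cre- and 118 CPM in Cre+ libraries (log2 fold change 0.18, adjusted p = 0.0463 by edgeR). P2ry12, a defining marker of microglia in the brain, reached at most 1.03 CPM in any library. Outside the microglia list, the markers above 10 CPM in at least 1 library were Mrc1, S100a8, Aldh1l1, Mbp, Mag and Cspg4. Of these, Mrc1, a marker of border macrophages, differed (log2 fold change 0.47, adjusted p = 0.000669 by edgeR). The summed level of the 4 border macrophage markers, none of them at 0 in all libraries, was 55.7 to 57.9 CPM in Cre- and 71.0 to 86.8 CPM in Cre+ libraries. Nearly all of this sum was Mrc1 (means of 56.7 and 78.4 CPM), and the means of Lyve1, Cd163 and F13a1, each at most 0.269 CPM in either group and below the filter, were lower in Cre+ libraries. Its part in the results below was not tested.

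Among the 8 genes, Tbl1x was the only one past the threshold, and it was higher in Cre+ libraries. Nr1d1 itself had the largest log2 fold change of the 8 in this fit, with a lower level in Cre+ libraries that missed the threshold. The count of 1 in 8 genes stands against 2.50% of all tested genes called higher in Cre+ and 2.56% called lower. The groups did not overlap for 5 of the 8 genes (Nr1d1, Ncor1, Hdac3, Tbl1x and Gps2), as was the case for 24.0% of all tested genes. For Hdac3 this depended on the scaling, since its groups overlapped in CPM on library totals (38.0 in Cre- replicate 3 and 38.3 in Cre+ replicate 2, exact permutation p = 0.2). An unadjusted p-value under 0.05 was found for 3 of the 8 genes and for 19.1% of all tested genes. The median log2 fold change was -0.04 over the 8 genes and 0.0023 over all tested genes, with 3 of the 8 above zero and 5 below.

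**Figure D2:**
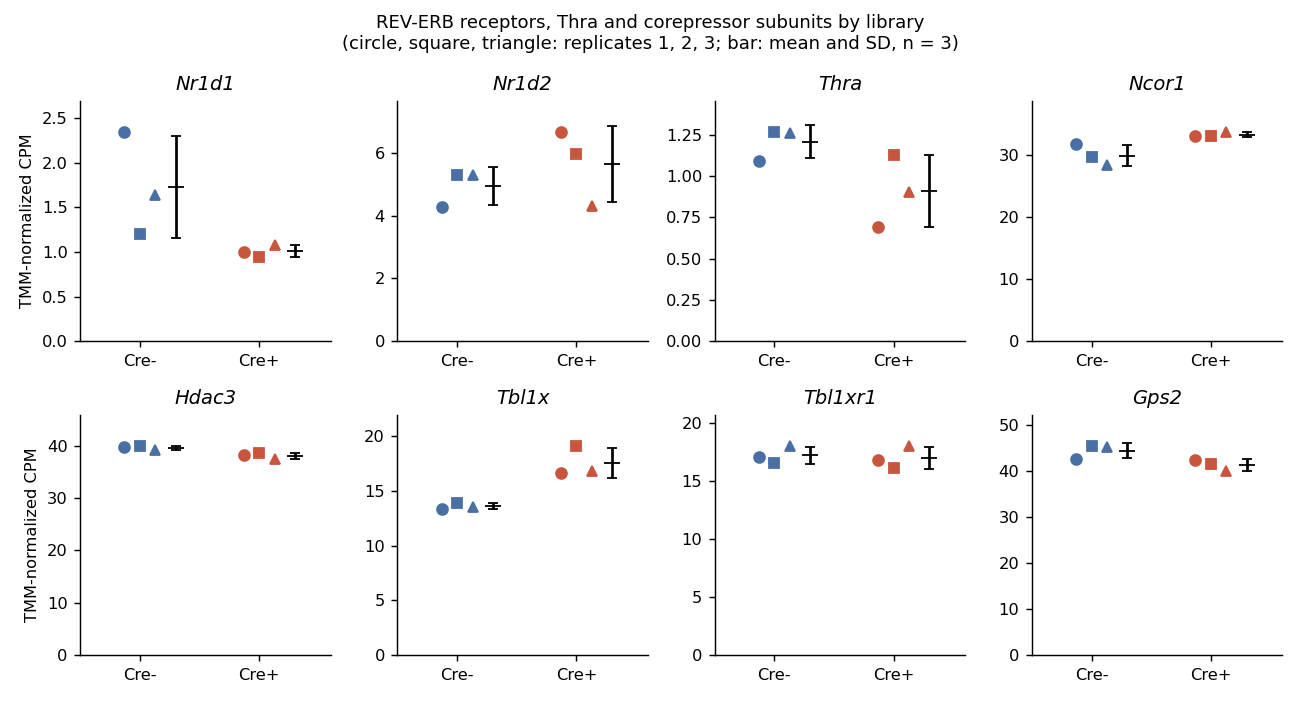
TMM-normalized CPM of the 8 genes in each library (y axis, from 0), by group. Circles, squares and triangles are replicates 1, 2 and 3, and the bar beside them is the mean with its SD (n = 3). For Nr1d1 the Cre- replicates spread from 1.20 to 2.35 CPM above a narrow Cre+ group, and for Tbl1x every Cre+ library lies above every Cre- library.

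Nr1d1, the targeted gene, was counted 204, 111 and 147 times in Cre- replicates 1, 2 and 3 and 110, 88 and 109 times in the Cre+ replicates. The normalized levels were 2.35, 1.20 and 1.64 CPM in Cre- and 1.00, 0.945 and 1.08 CPM in Cre+ libraries. Cre- replicate 1 stood highest, and Cre- replicate 2 lay only slightly above the Cre+ range. The Cre+ level was 58.5% of the Cre- level, with a wide 95% interval of 40.4% to 84.7%. The share of the gene's length outside the floxed exons is 71.5%, and the part of lost exons in the difference was not tested. The log2 fold change was -0.77 (SE 0.25, adjusted p = 0.0945 by edgeR). It was -0.50 (adjusted p = 0.313 by edgeR) without Cre- replicate 1, and -0.98 (adjusted p = 0.0414) without Cre- replicate 2, the single omission that took it past the threshold. Since the counts are summed over the gene, they do not separate reads of exons 3 to 5 from reads of the exons that remain, and fewer recombined cells and less RNA per cell cannot be told apart in bulk RNA.

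The spread of the 3 Nr1d1 values was larger in Cre- than in Cre+ libraries, a contrast that was not tested. Its coefficient of variation was 33.3% in Cre- libraries, where counting alone gives 8.06%, and 6.75% in Cre+ libraries, where counting alone gives 9.89%. Dbp, a clock output gene below the expression filter and chosen here after its values were seen, had the same order within Cre-, with 2.58 CPM in Cre- replicate 1 against 0.552 and 0.760 CPM in the other Cre- libraries and 0.516 to 0.648 CPM in Cre+ libraries. Reads on genes that microglia are not known to use also differed between the groups. The 1093 protein-coding olfactory receptor genes summed to 88.5, 57.7 and 68.3 CPM in Cre- replicates 1, 2 and 3 and to 41.1, 45.1 and 43.5 CPM in the Cre+ replicates, which within Cre- is the order of Nr1d1. Scaled to the length of Nr1d1, this level came to between 0.0360 and 0.0774 CPM, or 3.30% to 4.21% of the Nr1d1 value of the same library. With it subtracted, the difference between the mean log2 CPM values of Nr1d1 was -0.73, against -0.72 before. Of the 1171 tested genes within 1.5-fold of the mean level of Nr1d1, 11 (0.939%) were called. A log2 fold change as low as that of Nr1d1 or lower was found for 24 (2.05%). Nr1d1 itself is counted in the 1171 and in the 24.

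Nr1d2, the paralogue that binds the same DNA elements, was counted 371, 489 and 474 times in Cre- and 731, 556 and 435 times in Cre+ libraries. This gave 4.27, 5.29 and 5.30 CPM in Cre- and 6.67, 5.97 and 4.32 CPM in Cre+ libraries. The groups overlapped, since Cre+ replicate 3 lay near the lowest Cre- library. The log2 fold change was 0.19 (SE 0.17, 95% interval -0.16 to 0.55, adjusted p = 0.592 by edgeR). The coefficient of variation was 12% in Cre- and 21.4% in Cre+ libraries, above the 4.74% and 4.17% that counting gives. The RefSeq promoter table (GRCm38.p6, windows of 300 bases around the start) held 6 of the 8 genes, without Thra and Hdac3. The nuclear receptor half-site AGGTCA was searched on both strands, without the flanking bases of a full REV-ERB element. It was present once in the window of Nr1d2, at position -77, and in none of the other members' windows. Of the 32851 promoters, 16.3% hold it. The direct repeat RevDR2 (that half-site in tandem), the E-box CACGTG and the D-box TTATGNAA were in none of these windows, and 0.00913%, 7.15% and 3.38% of all promoters hold them.

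Per kb of counted length and within each library, Nr1d1 made up 49.2%, 28.5% and 35.3% of the summed REV-ERB level (Nr1d1 plus Nr1d2) in Cre- replicates 1, 2 and 3. It made up 20.9%, 21.8% and 30.6% in the Cre+ replicates. Nr1d2 was therefore the more abundant receptor by this measure in all 6 libraries, and Cre- replicate 1 came close to an even split. The counts of Nr1d1 were divided by its full length in both groups, although a recombined copy keeps 71.5% of it. The Cre+ shares, and the Cre+ levels of Nr1d1 per kb, are therefore not corrected for lost exons. The share of recombined copies was not measured. The means were 37.7% ± 10.5 (SD, n = 3) in Cre- and 24.4% ± 5.35 (SD, n = 3) in Cre+, and the ranges overlapped. An exact 2-sided permutation test gave p = 0.2 (adjusted p = 0.2 over the 3 shares computed), where 0.1 is the smallest p that 3 libraries against 3 allow.

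Thra, the receptor gene whose 3′ exons overlap those of Nr1d1, was the least abundant of the 8 genes per length. It was counted 95, 117 and 113 times in Cre- and 76, 105 and 91 times in Cre+ libraries, or 1.09, 1.27 and 1.26 CPM against 0.693, 1.13 and 0.903 CPM. The lowest value was that of Cre+ replicate 1, and Cre+ replicate 2 lay inside the Cre- range. The log2 fold change was -0.42 (SE 0.24, 95% interval -0.92 to 0.09, adjusted p = 0.369 by edgeR). The olfactory receptor level scaled to the length of Thra was 5.25% to 10.6% of its value in the same library. Reads in the 263 shared bases could belong to either gene, and their part in both differences was not tested.

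The genes around Nr1d1 were read in the same way. Of the 9 protein-coding genes within 100 kb, 7 were tested. Casc3, which encodes a core factor of the exon junction complex (chr11:98804905-98833814), fell in Cre+ libraries, with a log2 fold change of -0.59 (SE 0.15, adjusted p = 0.0341 in edgeR). Its levels were 7.04, 5.70 and 7.38 CPM in Cre- and 4.60, 3.81 and 4.98 CPM in Cre+ libraries, without overlap. The call of Casc3 was kept without Cre- replicate 2 and lost without any of the other 5 libraries, with adjusted p-values up to 0.132. Psmd3, a proteasome subunit, was at -0.28 on the same scale (SE 0.08, adjusted p = 0.0575 in edgeR). The log2 fold changes of Med24, Msl1, Rapgefl1 and Wipf2 lay between -0.41 and 0.10, with adjusted p-values of at least 0.447. Gsdma and Csf3 were below the filter, at means of at most 0.340 CPM in either group.

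Ncor1, the scaffold of the complex (chr11:62316426-62458541), was counted 2540 to 3627 times. Its levels were 31.8, 29.7 and 28.4 CPM in Cre- and 33.1, 33.1 and 33.7 CPM in Cre+ libraries, so that every Cre+ library lay above every Cre- library. The difference was small, with a log2 fold change of 0.15 (SE 0.07, 95% interval 0.01 to 0.30, unadjusted p = 0.0382 by edgeR), and missed the threshold after adjustment (adjusted p = 0.225).

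Hdac3, the deacetylase of the complex on chromosome 18, was counted 3460, 3694 and 3508 times in Cre- and 4196, 3592 and 3781 times in Cre+ libraries. Its levels were 39.8, 40.0 and 39.2 CPM in Cre- and 38.3, 38.6 and 37.5 CPM in Cre+ libraries, close together in both groups and, on this scale, without overlap. The log2 fold change was -0.06 (SE 0.06, 95% interval -0.18 to 0.07, adjusted p = 0.669 by edgeR). Its coefficient of variation, 1.01% in Cre- and 1.46% in Cre+ libraries, was no larger than the 1.68% and 1.61% that counting gives. The direction depended on scaling. Without a filter on low genes, the normalization moved the median log2 fold change of all tested genes to 0.08, and that of Hdac3 became 0.02.

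Tbl1x and Tbl1xr1 encode closely related WD40 repeat proteins that help to hold the complex on chromatin. Tbl1x (chrX:77511013-77662983) rose in Cre+ libraries. It was counted 1161, 1288 and 1213 times in Cre- and 1830, 1781 and 1699 times in Cre+ libraries, or 13.4, 13.9 and 13.6 CPM against 16.7, 19.1 and 16.9 CPM. The lowest Cre+ library lay clearly above the highest Cre- library, and Cre+ replicate 2 was the highest of all. The Cre+ level was 129% of the Cre- level (95% interval 113% to 147%), with a log2 fold change of 0.37 (SE 0.09, adjusted p = 0.0277 in edgeR). The call was kept in all 8 fits with another scaling, filter, model or tool, and in 1 of the 6 fits that left out 1 library, the one without Cre+ replicate 1 (adjusted p = 0.0454 by edgeR). In the other 5 of these fits the log2 fold change stayed between 0.30 and 0.40 and the adjusted p-value lay between 0.0559 and 0.124, highest without Cre+ replicate 2.

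For Tbl1xr1 (chr3:22076652-22216594) no difference was detected. It was counted 1486, 1530 and 1615 times in Cre- and 1845, 1501 and 1816 times in Cre+ libraries, or 17.1, 16.6 and 18.1 CPM against 16.8, 16.1 and 18.0 CPM, with overlapping groups. The log2 fold change was -0.02 (SE 0.09, 95% interval -0.20 to 0.16, adjusted p = 0.939 by edgeR), and its sign changed in 4 of the other fits. Tbl1x made up 49.7%, 51.5% and 48.7% of the summed level of both genes per kb in Cre- replicates 1, 2 and 3, and 55.6%, 60.0% and 54.2% in the Cre+ replicates. The pair was thus evenly split in Cre- libraries and leaned towards Tbl1x in every Cre+ library. The means were 50.0% ± 1.45 (SD, n = 3) and 56.6% ± 3.03 (SD, n = 3), 6.62 percentage points apart, with p = 0.1 in the exact 2-sided permutation test (adjusted p = 0.15 over the 3 shares computed).

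**Figure D3:**
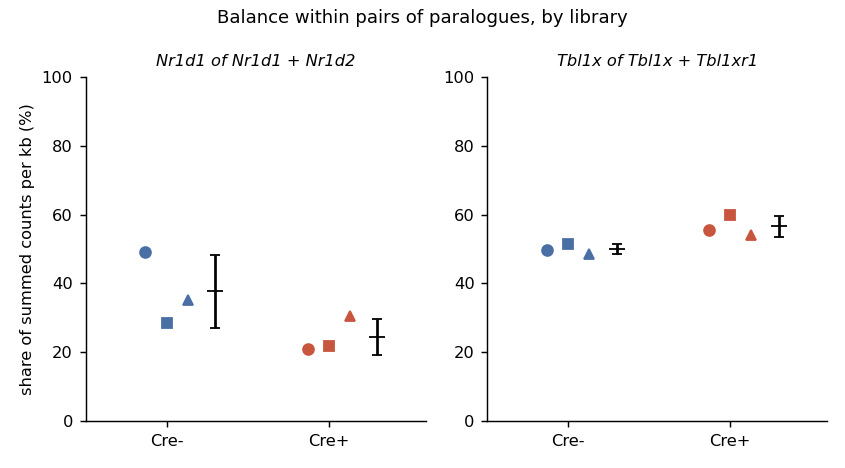
Share of 1 paralogue in the summed counts per kb of its pair (y axis, percent, 0 to 100), computed within each library. Symbols are replicates as in the plot of CPM by library and bars are means with SD (n = 3). The Tbl1x share lies between 48.7% and 51.5% in Cre- and between 54.2% and 60.0% in Cre+ libraries, while the Nr1d1 shares of the groups overlap.

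Gps2 (chr11:69913888-69916591), the small subunit that also restrains inflammatory signaling in the cytoplasm, was counted 3706, 4200 and 4056 times in Cre- and 4646, 3876 and 4030 times in Cre+ libraries. Its levels were 42.6, 45.5 and 45.3 CPM in Cre- and 42.4, 41.6 and 40.0 CPM in Cre+ libraries. The groups touched but did not overlap, since Cre- replicate 1 lay just above Cre+ replicate 1. The log2 fold change was -0.11 (SE 0.06, 95% interval -0.24 to 0.02, adjusted p = 0.376 by edgeR).

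**Figure D4:**
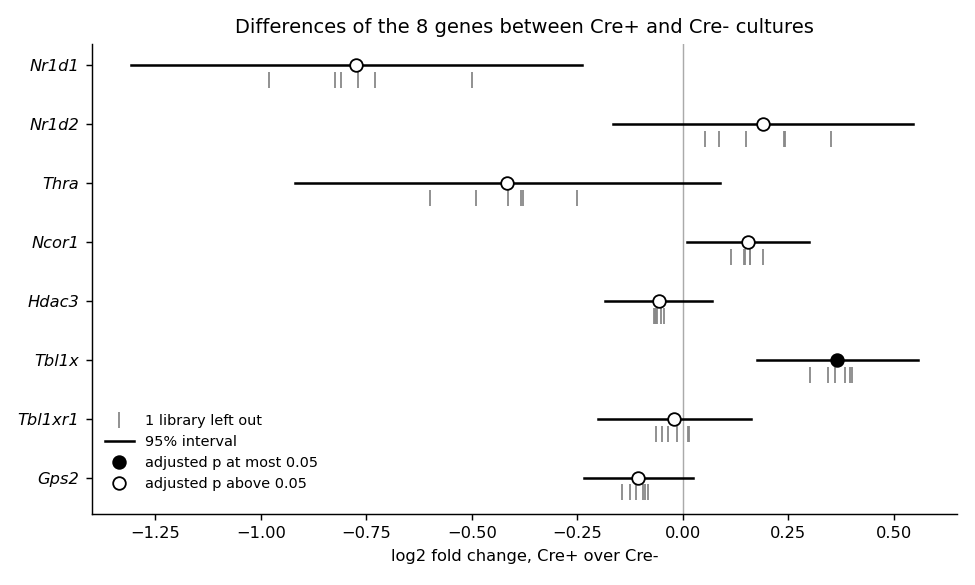
Log2 fold changes of Cre+ over Cre- (x axis) for the 8 genes, with the 95% interval of edgeR's quasi-likelihood fit as a line. Gray ticks are the fits that each left out 1 library. Tbl1x (0.37) is the 1 filled point, past an adjusted p of 0.05, and Nr1d1 (-0.77) and Thra (-0.42) have the widest intervals.

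Tested as single values, none of the 8 genes could pass a threshold of 0.05 in an exact permutation test, because 3 libraries against 3 give at least p = 0.1. The 2-sided exact permutation test on log2 CPM gave p = 0.1 for Nr1d1, Ncor1, Hdac3, Tbl1x and Gps2 (adjusted p = 0.16 over the 8 genes). The same exact permutation test gave p = 0.4 for Nr1d2, p = 0.2 for Thra and p = 0.7 for Tbl1xr1.

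Compared per kb of counted length, the 3 receptor genes were the least abundant of the 8 and Gps2 and Hdac3 the most abundant. In Cre- libraries the order was Gps2 (27.7 ± 1.00 CPM per kb, SD, n = 3), Hdac3 (9.78 ± 0.0987), Ncor1 (2.34 ± 0.132), Tbl1xr1 (1.94 ± 0.0850), Tbl1x (1.93 ± 0.0426), Nr1d2 (0.916 ± 0.110), Nr1d1 (0.562 ± 0.188) and Thra (0.262 ± 0.0216). Neighbors in this order had ranges that did not overlap, except Tbl1xr1 and Tbl1x. In Cre+ libraries Tbl1x (2.49 ± 0.193 CPM per kb) stood above Tbl1xr1 (1.91 ± 0.107) and overlapped Ncor1 (2.60 ± 0.0286). The other places were the same, down to Nr1d2 (1.05 ± 0.224), Nr1d1 (0.328 ± 0.0222) and Thra (0.197 ± 0.0471). Per kb, the scaffold was thus at a lower level than the deacetylase it carries in both groups.

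**Figure D5:**
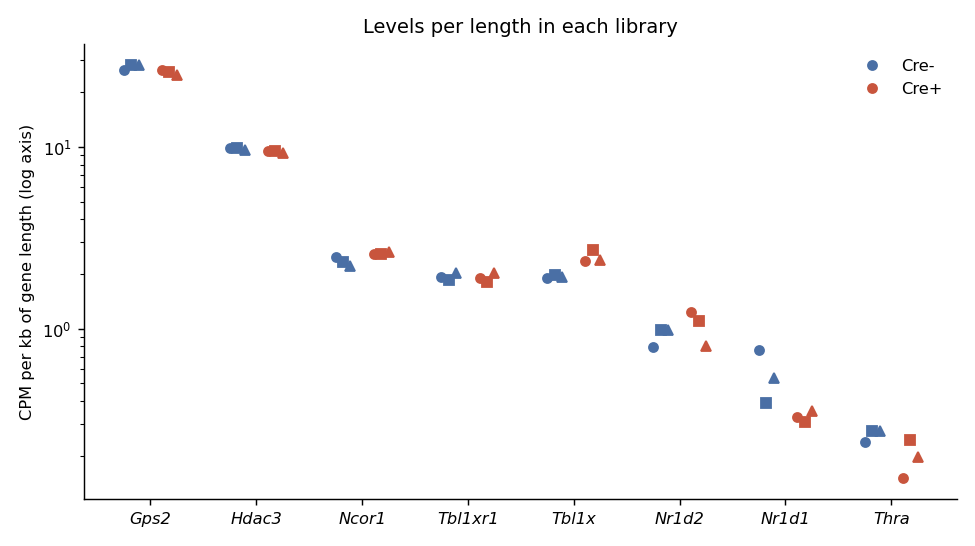
CPM per kb of counted gene length in each library (y axis, log scale) for the 8 genes in the order of their Cre- means. Circles, squares and triangles are replicates 1, 2 and 3. Gps2 lies between 24.9 and 28.3 and Thra between 0.150 and 0.274 CPM per kb, and Tbl1x moves from the level of Tbl1xr1 in Cre- to that of Ncor1 in Cre+ libraries.

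The genes whose log2 CPM followed that of Nr1d1 most closely over the 6 libraries were BC037034, Bloc1s1, Mif, Inpp5a and Zswim8, with Pearson's r of 0.995, 0.995, 0.990, 0.985 and 0.983. None of them passed the threshold, with log2 fold changes between -0.34 and -0.05. For Nr1d2 they were Emc2, St18 and Ak8, with r of 0.978, 0.975 and 0.974. The libraries are shared by all genes, and 126 of 11428 genes exceeded an r of 0.9 with Nr1d1 and 60 with Nr1d2, so these values are a description.

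Around the 8 genes, 112 genes in 8 lists covered relatives of the complex, genes repressed by REV-ERB, the clock, heme, protein turnover, other nuclear receptors, thyroid hormone and coactivators. Of the 85 that were tested, 11 passed the threshold (12.9%, where all tested genes give 5.07%), 5 higher and 6 lower in Cre+ libraries, with a median log2 fold change of -0.02. The lists were written with earlier results of these data known, so their counts are a description.

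Among relatives of the complex and other corepressors, 2 of 20 tested genes fell, none rose, and the median log2 fold change was -0.07. Hdac5, a class IIa deacetylase that relies on the HDAC3 complex for activity, fell, with a log2 fold change of -0.38 (SE 0.10, adjusted p = 0.0421 in edgeR). The call of Hdac5 was kept without Cre- replicate 1 or Cre+ replicate 1 and lost without any of the other 4 libraries, with adjusted p-values up to 0.159. Coactivators gave 0 of 8 by edgeR's test, where 1 had an unadjusted p under 0.05, and DESeq2 also gave 0. The smallest p was that of the acetyltransferase gene Crebbp, at a log2 fold change of 0.15 (SE 0.06, adjusted p = 0.208).

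Genes known as REV-ERB targets included 11 that were tested, of which 2 rose and none fell, with a median log2 fold change of 0.14. Tlr4, the lipopolysaccharide receptor, was at 31.0, 36.0 and 32.7 CPM in Cre- and 48.9, 40.3 and 43.7 CPM in Cre+ libraries (log2 fold change 0.41, SE 0.08, adjusted p = 0.00618 by edgeR). Lpl, lipoprotein lipase, had a log2 fold change of 0.16 (SE 0.03, adjusted p = 0.0119 by edgeR), a call lost without Cre- replicate 3 (adjusted p = 0.0598). Arntl, which encodes the clock activator BMAL1 and was chosen after its values were seen, was at 3.93, 4.85 and 4.73 CPM in Cre- and 5.47, 3.57 and 5.22 CPM in Cre+ libraries. Both groups of Arntl covered nearly the same range, with a log2 fold change of 0.08 (SE 0.17, adjusted p = 0.868 by edgeR). Among 9 other clock genes tested, none passed edgeR's test, 1 had an unadjusted p under 0.05, and DESeq2 also called none. That gene was Per2, a repressor of the clock, with 1.51, 1.37 and 1.54 CPM in Cre- and 2.62, 1.54 and 2.29 CPM in Cre+ libraries (log2 fold change 0.55, adjusted p = 0.197).

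Heme is the ligand of the REV-ERB receptors, and all 12 genes of its synthesis and breakdown were tested. Alas1, the rate-limiting enzyme of heme synthesis, rose, with a log2 fold change of 0.21 (SE 0.04, adjusted p = 0.00830 by edgeR). Hmox1, heme oxygenase, fell from 502, 484 and 511 CPM in Cre- to 392, 392 and 384 CPM in Cre+ libraries (log2 fold change -0.36, SE 0.04, adjusted p = 6.24e-05 by edgeR). Blvrb, which encodes biliverdin reductase B, also fell, with a log2 fold change of -0.26 (SE 0.04, adjusted p = 0.00243 by edgeR). These 3 calls were kept in each of the fits that left out 1 library, and that of Blvrb was lost without a filter on low genes (adjusted p = 0.058 by edgeR). The median over the 12 genes was -0.02, and the other 9 did not pass the threshold.

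Of 8 genes of REV-ERB protein turnover, Gsk3b, a kinase that stabilizes REV-ERBα, rose, with a log2 fold change of 0.21 (SE 0.06, adjusted p = 0.0394 by edgeR). That call was kept only without Cre+ replicate 2 among the fits with 1 library left out. Of 15 other nuclear receptors tested, 1 rose and 2 fell, with a median log2 fold change of -0.05. Esr1, the estrogen receptor, was at 1.22, 0.660 and 1.02 CPM in Cre- and 6.36, 6.48 and 6.07 CPM in Cre+ libraries (log2 fold change 2.71, SE 0.20, adjusted p = 8.17e-07 by edgeR). Those values separate the groups as labelled, and CreERT2 carries an altered human estrogen receptor domain, whose share of the reads on Esr1 was not tested. Rxra and Nr1h2, which encode RXRα and LXRβ, fell, with log2 fold changes of -0.29 (adjusted p = 0.0459) and -0.19 (adjusted p = 0.0413) in edgeR's test. Both calls were lost in every fit that left out 1 library. Of the genes of thyroid hormone supply and response, 3 of 11 were tested and none passed edgeR's test, with 0 at an unadjusted p under 0.05 and 0 by DESeq2. The smallest p among them was that of Klf9, at a log2 fold change of 0.04 (SE 0.09, adjusted p = 0.865).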

How the data were processed

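RNA of 6 microglia libraries, 3 Cre- and 3 Cre+, was grouped by sample title. The counts, as deposited by the authors, are whole reads per Ensembl gene. The submitters' processing notes name bcl2fastq, STAR 2.7.9a, featureCounts 2.0.3 and GRCm38, and the methods of the study name other versions of STAR and featureCounts. The deposited CPM values are the counts relative to a library total of 1000000, and the deposited FPKM values, from the authors, are the CPM per kb of exons. Both were read only to check the units. All values given were computed from the counts.

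Genes with an rRNA or Mt_rRNA biotype in GENCODE M21 (356 genes) were left out. A gene was tested if it exceeded 1 CPM in 4 or more libraries, with edgeR 4.0.16 (quasi-likelihood, TMM, no covariates) in R 4.3.3, with Benjamini-Hochberg adjustment. Effective library sizes were those of the tested genes. Standard errors were taken as the absolute log2 fold change over the root of F. Low counts limit precision, as for the 88 to 204 reads on Nr1d1, and the 95% intervals are those of the edgeR fit, which include the spread between libraries. Alternatives were DESeq2 1.42.0, its size factors, library totals, limma 3.58.1 with voomWithQualityWeights, 2 other filters, the replicate number as a block, and each library left out. Removal of the trend with abundance and subtraction of the olfactory receptor level were added after the data were seen. Exon positions came from GENCODE M21, and sequences from its transcripts.

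The 8 genes and the lists were chosen with earlier results of these data known. The genes named were the 8, in each list those past the threshold (at most the 4 with the smallest p) or else the 1 with the smallest p, the genes most like Nr1d1 (5) and Nr1d2 (3), protein-coding genes within 100 kb of Nr1d1, the 3 highest microglia markers and other markers above 10 CPM. P2ry12, Dbp and Arntl fall outside this rule. Of 3 shares of paralogues computed within each library, 1 is not reported here, nor are some genes that the rule names and some sequences. Permutation tests used scipy 1.17.1.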

Additional observations from a re-analysis of the deposited data

How the results depend on the processing

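The number of genes past the threshold, 579, became 1528 without a filter and 886 with DESeq2, and 317 to 448 when 1 library was left out. The number among the 8 genes, 1, stayed at 1 in each fit on all 6 libraries and was 0 to 1 with 1 library left out. The number among the lists, 11, was 7 to 9 with 1 library left out. Tbl1x kept its direction throughout, with log2 fold changes of 0.30 to 0.40 with 1 library left out, and lost its call in 5 of these 6 fits. Nr1d1 ranged from -0.98 to -0.50 in these fits, and passed the threshold without Cre- replicate 2 (-0.98, adjusted p = 0.0414 from edgeR's test). The sign of Hdac3 turned without a filter (0.021), and that of Tbl1xr1 without a filter (0.059), with edgeR's filterByExpr (0.023) and within -0.064 to 0.016 with 1 library left out. The sign of Msl1 turned without a filter (0.046) and with filterByExpr (0.0093). With 1 library left out, Msl1 ranged from -0.12 to 0.033, Wipf2 from -0.058 to 0.19 and Arntl from -0.035 to 0.25. None of these genes passed the threshold in any of those fits. The cause of these changes was not tested, except that leaving out the filter moves the median log2 fold change of all tested genes to 0.08 by its scaling. Over the 8 genes, 101 of 112 alternative fold changes kept both direction and call. The balances of Nr1d1 with Nr1d2 and of Tbl1x with Tbl1xr1 kept their direction in each alternative. They are ratios within a library, which another scaling of the libraries cannot change.

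The same replicate numbers stand in both groups. The deviations of same-numbered libraries from their group means correlated at 0.01, -0.02 and -0.04, so the numbers were not taken as pairs. With the replicate number as a block, 430 genes and 1 of the 8 genes passed the threshold, 8 list genes did, and Tbl1x had a log2 fold change of 0.36. Of the called list genes, Hdac5, Nr1h2, Rxra and Blvrb lost their calls without a filter, the first 3 also with filterByExpr, Hdac5, Nr1h2 and Gsk3b with the block, and Gsk3b with the abundance trend removed. Crebbp passed the threshold without a filter, and Psmd3 with DESeq2 and without Cre- replicate 1.

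Depth limits Nr1d1 and Thra most, at 76 to 204 reads per library. Deletion of exons 3 to 5 was not measured here, since reads were counted per gene. The paper reported this deletion, and loss of most Nr1d1 transcript, in microglia with another Cre line (Cx3cr1::CreERT2). The design of 3 libraries per group cannot reach p = 0.05 in a permutation test of a single value, and no test for outlying libraries was made in groups of 3.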

Other observations

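Genes of low abundance were lower in Cre+ libraries as a whole. On library totals, genes with a mean of 0.03 to 0.3 CPM had a median log2 ratio of Cre+ over Cre- of -0.77 (12506 genes), against -0.06 for genes of 1 to 2 CPM (1302 genes), 0.0054 for genes of 5 to 30 CPM (4954 genes) and 0.03 for genes above 30 CPM (3460 genes). The number of genes with at least 1 count was 35166, 32587 and 33634 in Cre- replicates 1, 2 and 3 and 30677, 29941 and 30096 in the Cre+ replicates. Nr1d1 and Thra lie at 0.908 to 1.73 CPM by group mean, near the lower end of the genes tested. Fits from which the trend with abundance had been removed left the log2 fold change of Nr1d1 at -0.72 and that of Thra at -0.37, both short of the threshold (adjusted p = 0.112 and 0.438 by edgeR). The cause of this trend was not tested.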
